A study of Mus musculus with 8 samples.

Results

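*Hoxa9*, *Hoxa10*, *Hoxa11* and *Hoxa13* are the 4 posterior genes of the mouse HoxA cluster, and they were measured by RNA-seq in whole uteri at postnatal day 10 (PD10). They were picked by gene symbol, and their Entrez identifiers, 15405, 15395, 15396 and 15398, led to their rows in the count table of each library. All 4 were among the 27179 genes counted. *Hoxa13* was too low to be tested, so 3 of them were among the 16658 genes tested. The 8 libraries came from 8 mice on a mixed C57BL/6/129SvEv background. Both genotypes were homozygous for a floxed *Ezh2* allele (Ezh2 f/f). The 4 controls had no Cre, and the 4 *Ezh2 Amhr2*-Cre cKO mice (Acre in the labels) also had Cre recombinase driven by *Amhr2*, which acts in cells that descend from the mesenchyme of the reproductive tract and not in the uterine epithelium. The design asks how loss of EZH2 from the mesenchymal lineage changes uterine transcripts during the days when glands form. Only the cKO mice carried Cre, so effects of the Cre allele itself cannot be told apart from those of EZH2 loss.

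Hox genes encode homeodomain transcription factors, and within a cluster their order along the chromosome follows the order in which they are used along the body axis. In the Müllerian duct the posterior HoxA genes form such a series: *Hoxa9* is known for the oviduct, *Hoxa10* for the uterus, *Hoxa11* for the uterus and cervix, and *Hoxa13* for the cervix and upper vagina. *Hoxa10* and *Hoxa11* stay on in the uterine stroma after birth and are both needed for female fertility. EZH2 is the catalytic subunit of polycomb repressive complex 2 (PRC2), which marks Hox clusters for silencing by methylating histone H3.

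The cluster lies on the minus strand of chromosome 6, and the part of it described here, from *Hoxa2* to *Hoxa13*, spans 98.5 kb at chr6:52162417-52260880 (GRCm38.p6, RefSeq). *Hoxa9* is at chr6:52223097-52227370, *Hoxa10* at chr6:52231197-52240854, *Hoxa11* at chr6:52242105-52245810 and *Hoxa13* at chr6:52258853-52260880. Because PRC2 is known to be drawn to CpG-rich DNA, the RefSeq promoter windows of the members are shown, from 250 bases before to 50 bases after the start of the gene, read 5′ to 3′ on the gene's strand, with each CG dinucleotide in capitals. The windows are chr6:52227321-52227620 for *Hoxa9*, chr6:52240805-52241104 for *Hoxa10*, chr6:52245761-52246060 for *Hoxa11* and chr6:52260831-52261130 for *Hoxa13*.
Hoxa9: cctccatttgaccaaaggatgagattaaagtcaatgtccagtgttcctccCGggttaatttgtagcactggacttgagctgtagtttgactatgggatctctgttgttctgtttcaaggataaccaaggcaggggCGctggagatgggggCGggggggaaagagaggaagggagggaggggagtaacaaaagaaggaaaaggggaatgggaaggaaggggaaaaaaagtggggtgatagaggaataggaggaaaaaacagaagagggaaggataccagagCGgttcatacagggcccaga
Hoxa10: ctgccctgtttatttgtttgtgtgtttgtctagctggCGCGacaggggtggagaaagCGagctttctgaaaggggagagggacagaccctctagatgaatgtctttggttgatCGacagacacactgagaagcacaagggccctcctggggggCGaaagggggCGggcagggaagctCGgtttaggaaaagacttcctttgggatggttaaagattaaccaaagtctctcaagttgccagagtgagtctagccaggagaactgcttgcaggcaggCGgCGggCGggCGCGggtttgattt
Hoxa11: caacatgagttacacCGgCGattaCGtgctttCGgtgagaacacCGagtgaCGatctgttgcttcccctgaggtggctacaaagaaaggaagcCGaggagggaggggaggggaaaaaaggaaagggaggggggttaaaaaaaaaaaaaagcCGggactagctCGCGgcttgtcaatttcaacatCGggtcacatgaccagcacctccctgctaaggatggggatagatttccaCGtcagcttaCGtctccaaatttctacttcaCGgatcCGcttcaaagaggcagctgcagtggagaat
Hoxa13: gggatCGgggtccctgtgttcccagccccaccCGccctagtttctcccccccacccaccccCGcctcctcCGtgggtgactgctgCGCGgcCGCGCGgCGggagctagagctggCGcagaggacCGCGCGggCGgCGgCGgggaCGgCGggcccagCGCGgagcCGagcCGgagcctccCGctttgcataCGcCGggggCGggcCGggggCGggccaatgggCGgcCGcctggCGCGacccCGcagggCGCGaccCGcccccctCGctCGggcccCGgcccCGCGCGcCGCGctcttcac

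The 4 windows differed widely in CG content. The *Hoxa9* window held 4 CG dinucleotides, and 68.6% of 32851 RefSeq promoter windows of the same length held as many or more. The *Hoxa10* window held 12 (39.6% of windows) and the *Hoxa11* window held 15 (34.6%). *Hoxa10* has another annotated start, further downstream, whose window at chr6:52234890-52235189 held 21 (24.8%). The *Hoxa13* window stood far above the other members, with 45 CG dinucleotides (1.93% of windows) and 81% G and C, against a median of 7 CG dinucleotides over all windows. CG dinucleotides were counted on one strand, which gives the same count on the other. No chromatin mark or methylation was measured in these libraries.

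Between 25287141 and 36685807 reads per library were counted on genes. The libraries had the markers of a uterus. Stromal markers summed to between 8699 and 11297 CPM (counts scaled to library size with edgeR's TMM method) in control and between 10408 and 13158 CPM in cKO libraries, with 1 of 8 passing as higher (*Col3a1*, which made up most of the sum, log2 fold change 0.36, adjusted p = 0.0454, edgeR), and smooth muscle and epithelial markers were also high in all 8. Urothelium markers summed to 39.3 to 99.5 CPM in control and 65.8 to 99.0 CPM in cKO (median log2 fold change 0.62). Hindgut markers summed to 3.60 to 5.39 CPM in control and 4.10 to 10.5 CPM in cKO (median 0.82). No marker of either list passed. Markers of the tract segments next to the uterus were low. Oviduct and cilia markers summed to 55.1 to 69.6 CPM in control and 58.3 to 70.3 CPM in cKO. Most of this sum was *Pax8* (mean 54.5 CPM in control and 54.7 CPM in cKO). Markers of cervix, vagina and stratified epithelium summed to 16.1 to 18.1 CPM in control and 18.8 to 24.9 CPM in cKO. For these, every cKO sum was above every control sum. *Krt6a* was at 0 in every library, and the others had log2 fold changes from -0.22 (*Trp63*) to 1.80 (*Krt5*), with a median of 0.47. None of 6 oviduct markers tested passed the same test, though *Foxj1* was lower in every cKO library (log2 fold change -0.78, adjusted p = 0.0766, edgeR). Of 7 markers of cervix, vagina and stratified epithelium tested, 1 passed (*Sprr1a*, higher). Counted over the whole gene, *Ezh2* averaged 45.0 ± 8.70 CPM in the controls and 36.8 ± 4.41 CPM after deletion (SD, n = 4) with overlapping libraries, and the difference (log2 fold change -0.29, standard error (SE) 0.13) did not pass edgeR's quasi-likelihood test (adjusted p = 0.247), lying between -0.39 (without control replicate 4) and -0.18 (without control replicate 3) when 1 library was left out. Reads of the exons outside the deleted stretch remain in such a count. Fat markers set the libraries apart: they summed to 3.38 to 5.14 CPM in control, to 5.46 CPM in cKO replicate 4 and to as much as 211.5 CPM in cKO replicates 1 to 3, and 2 of 7 tested (*Pparg* and *Adrb3*) passed as higher. Over all genes cKO replicate 4 also stood nearer to control replicates 3 and 4 (chi-square per gene 14.9 and 12.5) than to the other cKO libraries (18.9 to 21.2). Results on the members are therefore also given for cKO replicate 4 alone against the 4 controls, and with a fat score (the mean log2 level of the fat markers) as a covariate. Fat markers were high only in cKO replicates 1 to 3, so both fits lean on cKO replicate 4 and are not separate checks. In such whole-organ RNA, fewer cells of a type and less RNA per cell cannot be told apart.

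*Hoxa10* and *Hoxa11* were the abundant members, *Hoxa9* was far lower and *Hoxa13* was at the limit of detection. Levels of different genes are given as CPM per kb of exon. In control uteri the level was 101.8 ± 5.54 for *Hoxa10*, 75.3 ± 4.17 for *Hoxa11* and 4.67 ± 0.764 for *Hoxa9* (SD, n = 4). In cKO uteri the levels were 66.3 ± 6.26, 53.6 ± 6.99 and 5.05 ± 0.952, in the same order. The control libraries of *Hoxa10* (95.5 to 109) and *Hoxa11* (70.8 to 80.4) did not overlap, whereas in cKO uteri the ranges of *Hoxa10* (57.1 to 70.3) and *Hoxa11* (46.2 to 61.4) did. Within each single library *Hoxa10* stayed above *Hoxa11*: it took between 55.5% and 56.5% of the summed level of the 4 members in control libraries, 51.4% to 52.6% in cKO replicates 1 to 3 and 56.8% in cKO replicate 4. The share of *Hoxa11* was 40.5% to 42.3% in control and 40.0% to 45.1% in cKO. That of *Hoxa9* was 2.15% to 2.99% in control and 3.21% to 4.89% in cKO, so that every cKO library was above every control library. The sum of the 4 levels was 170.5 to 194.6 in control libraries and 108.6 to 136.2 in cKO libraries.

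*Hoxa10*, the member that specifies uterine identity, was lower in every cKO uterus. Control replicates 1 to 4 had 342.4, 321.2, 316.1 and 300.2 CPM, and cKO replicates 1 to 4 had 179.4, 213.1, 220.2 and 221.0 CPM. The lowest control library was well above the highest cKO library, and cKO replicate 1 was the lowest of all. The mean fell from 320.0 ± 17.4 to 208.4 ± 19.7 CPM (SD, n = 4), a log2 fold change of -0.62 (SE 0.07, 95% confidence interval -0.78 to -0.46), or a change of -34.9%. This passed edgeR's quasi-likelihood test with Benjamini-Hochberg adjustment over all genes tested (adjusted p = 0.000377), and it stayed past it without any single library (log2 fold change -0.65 to -0.55, highest adjusted p = 0.00255). With cKO replicate 4 alone the log2 fold change was -0.53 (adjusted p = 0.0957), and with the fat score as a covariate it was -0.56 (adjusted p = 0.0374).

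*Hoxa11*, its neighbour in the cluster and its partner in uterine stroma, was also lower. Control replicates 1 to 4 had 183.8, 167.5, 175.5 and 161.9 CPM, and cKO replicates 1 to 4 had 105.6, 131.2, 140.5 and 113.3 CPM. Again no cKO library reached the lowest control library, and the cKO libraries were more spread than the controls. The mean fell from 172.2 ± 9.53 to 122.7 ± 15.99 CPM (SD, n = 4), a log2 fold change of -0.49 (SE 0.08, 95% confidence interval -0.67 to -0.31), or a change of -28.7% (adjusted p = 0.00522, edgeR). Leaving out any single library gave -0.56 to -0.42, with a highest adjusted p of 0.0249. The log2 fold change was -0.60 both with cKO replicate 4 alone (adjusted p = 0.0664) and with the fat score as a covariate (adjusted p = 0.0643).

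*Hoxa9*, the member known for the oviduct, showed no detectable difference. Control replicates 1 to 4 had 16.9, 17.4, 12.6 and 13.4 CPM, and cKO replicates 1 to 4 had 17.1, 20.1, 15.2 and 12.8 CPM. The genotypes overlapped, and both held libraries near 13 CPM and near 17 CPM. The means were 15.1 ± 2.46 and 16.3 ± 3.07 CPM (SD, n = 4), with a log2 fold change of 0.11 (SE 0.15, 95% confidence interval -0.20 to 0.43, adjusted p = 0.689, edgeR). Its sign turned with cKO replicate 4 alone (-0.23) and with the fat score as a covariate (-0.25), neither of which passed the test.

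*Hoxa13*, the most posterior member, had no counts in 7 of the 8 libraries and 1 count in cKO replicate 3, equal to 0.03 CPM. A count of 0 allows up to 3 counts, or 0.0824 to 0.117 CPM in these libraries, and this limit covers counting error only. The gene was therefore not detectable at this depth in either genotype, and no fold change is given. In the 7 libraries without a count, the level per kb of exon was at least 641-fold higher for *Hoxa10*, at least 519-fold higher for *Hoxa11* and at least 47.6-fold higher for *Hoxa9*, each computed against 3 counts of *Hoxa13* per library.

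**Figure D1:**
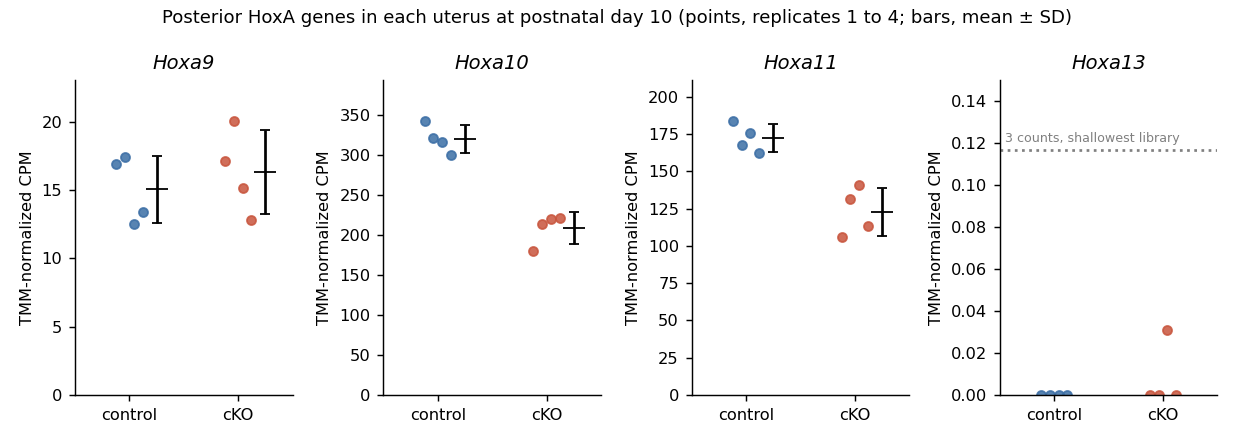
TMM-normalized CPM of *Hoxa9*, *Hoxa10*, *Hoxa11* and *Hoxa13* in each uterus (points; control in blue, cKO in red, replicates 1 to 4 from left to right), with the mean ± SD beside each group of the 3 expressed genes, on axes that differ between panels. The cKO points of *Hoxa10* and *Hoxa11* all sit below the control points, those of *Hoxa9* overlap them, and *Hoxa13* has a single point above 0, under the dotted line that marks 3 counts in the shallowest library (0.117 CPM).

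Of the 3 members tested, 2 were lower at an adjusted p under 0.05, *Hoxa10* and *Hoxa11*, and none was higher. Over all genes tested, 2.71% were lower and 2.62% higher by the same rule, and 5.34% passed it in either direction. Neither member reached the 2-fold change by which differentially expressed (DE) genes are defined, a definition met by 1.30% of the genes tested. The cKO libraries were all under the control libraries for 6.43% of genes and all over them for 5.90%, with *Hoxa10* and *Hoxa11* among the former. The median log2 fold change of all genes tested was 0.00.

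The members were also set against each other within each library, as the log2 ratio of their counts, which needs no scaling. These 4 pairs were chosen after the values were seen and share genes whose libraries were already apart, so their ratios are a description and carry no test. The ratio of *Hoxa9* to *Hoxa10* was -4.34, -4.20, -4.65 and -4.49 in control replicates 1 to 4 and -3.39, -3.41, -3.86 and -4.11 in cKO replicates 1 to 4. Every cKO library was above every control library, cKO replicate 4 the closest to them, and the means differed by 0.73. The ratio of *Hoxa9* to *Hoxa11* was -3.53 ± 0.23 in control and -2.92 ± 0.30 in cKO (SD, n = 4), also without overlap. The ratio of *Hoxa10* to *Hoxa11* was 0.89 ± 0.04 in control and 0.77 ± 0.14 in cKO, and the libraries overlapped through cKO replicate 4 (0.96): cKO replicates 1 to 3 had 0.76, 0.70 and 0.65, under the lowest control (0.85), and the difference was -0.13 with cKO replicate 4 and -0.19 without it. Toward the anterior side, the ratio of *Hoxa7* to *Hoxa9* was -3.05 ± 0.16 in control and -2.35 ± 0.22 in cKO, without overlap.

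**Figure D2:**
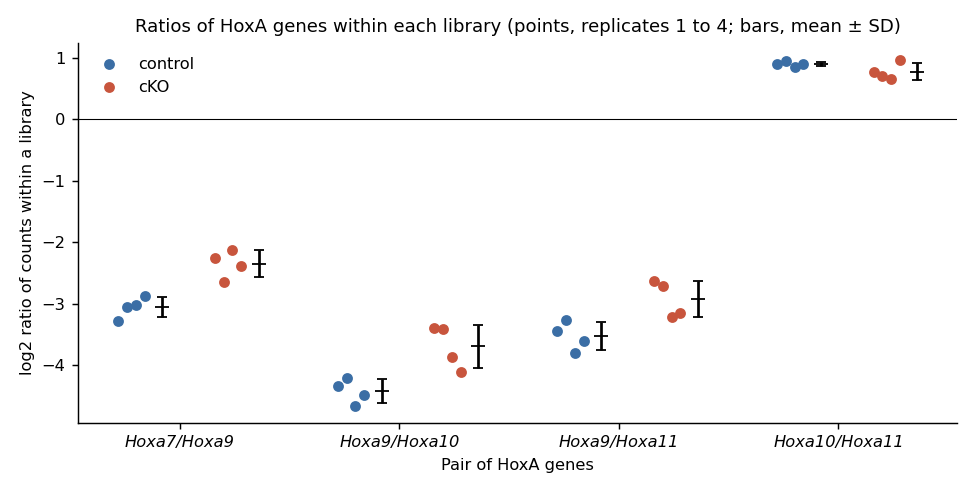
Log2 ratio of the counts of neighbouring HoxA genes within each library (points; control in blue, cKO in red) with the mean ± SD of each genotype (n = 4). The ratios of *Hoxa7* to *Hoxa9*, *Hoxa9* to *Hoxa10* and *Hoxa9* to *Hoxa11* are higher in every cKO library than in any control library, while the ratio of *Hoxa10* to *Hoxa11* overlaps through cKO replicate 4.

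The HoxA genes from *Hoxa2* to *Hoxa7*, known for patterning more anterior parts of the body, went the other way. All 6 were tested and all had every cKO library above every control library, as did 5.90% of all genes tested. At an adjusted p under 0.05, 5 rose, against 2.62% of all genes, and 4 of these were DE. Their log2 fold changes were between 0.83 and 1.60, with a median of 1.43, against a median of -0.49 over the 3 members tested. *Hoxa3* was 2.89 ± 0.386 CPM in control and 7.28 ± 0.249 CPM in cKO (log2 fold change 1.34, SE 0.13, adjusted p = 0.000105, edgeR). *Hoxa5* went from 1.60 to 4.64 CPM (1.53, SE 0.21, adjusted p = 0.00121), *Hoxa2* from 0.588 to 1.76 CPM (1.60, SE 0.25, adjusted p = 0.00294) and *Hoxa6* from 0.339 to 1.05 CPM (1.58, SE 0.31, adjusted p = 0.0114). These were rises of rare transcripts, since even in cKO uteri each of these genes stayed under *Hoxa9* per kb of exon, with *Hoxa3* at 2.81 and *Hoxa5* at 2.47 (1.21 and 2.47, against 2.92 for *Hoxa9*, when all annotated exons were counted in the length). *Hoxa7*, next to *Hoxa9*, rose the least of the 5, from 1.79 to 3.18 CPM (0.83, SE 0.18, adjusted p = 0.0179), and lost its call when replicate 1 or 3 of either genotype was left out (highest adjusted p = 0.0612). *Hoxa4* did not pass (log2 fold change 1.01, SE 0.30, adjusted p = 0.0748). With cKO replicate 4 alone, as with the fat score as a covariate, *Hoxa3* was the only one of the 6 that passed (log2 fold change 1.39 and 1.36). The others stayed above 0 in both fits: *Hoxa2* was 1.41 and 1.32, *Hoxa6* 1.32 and 1.43 and *Hoxa4* 0.80 and 0.92, while *Hoxa5* (0.96 and 1.00) and *Hoxa7* (0.45 and 0.50) were lower by over 1.5 times. The annotated span of *Hoxa3* covers *Hoxa4*, *Hoxa5* and *Hoxa6*, and how shared reads were assigned is not given in the sources used here.

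**Figure D3:**
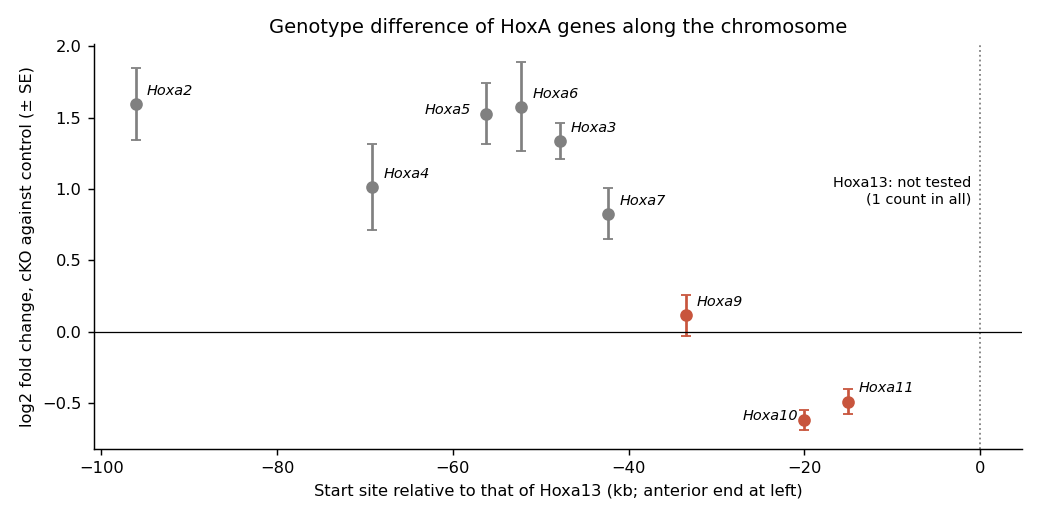
Log2 fold change of HoxA genes, cKO against control, with the SE, plotted by the distance of the annotated start site from that of *Hoxa13* (in kb, anterior end at the left; members in red, other HoxA genes in grey). The grey genes lie between 0.83 and 1.60, *Hoxa9* at 0.11, and *Hoxa10* and *Hoxa11* at -0.62 and -0.49; *Hoxa13* was not tested.

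The difference thus changed sign between *Hoxa7*, whose start site is 42.3 kb from that of *Hoxa13*, and *Hoxa10*, at 20.03 kb, with *Hoxa9* in between at 33.5 kb. *Hoxa11* starts 15.1 kb from *Hoxa13*, and the 13.04 kb between these 2 genes separates the member that fell from the one that was not detectable.

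**Figure D4:**
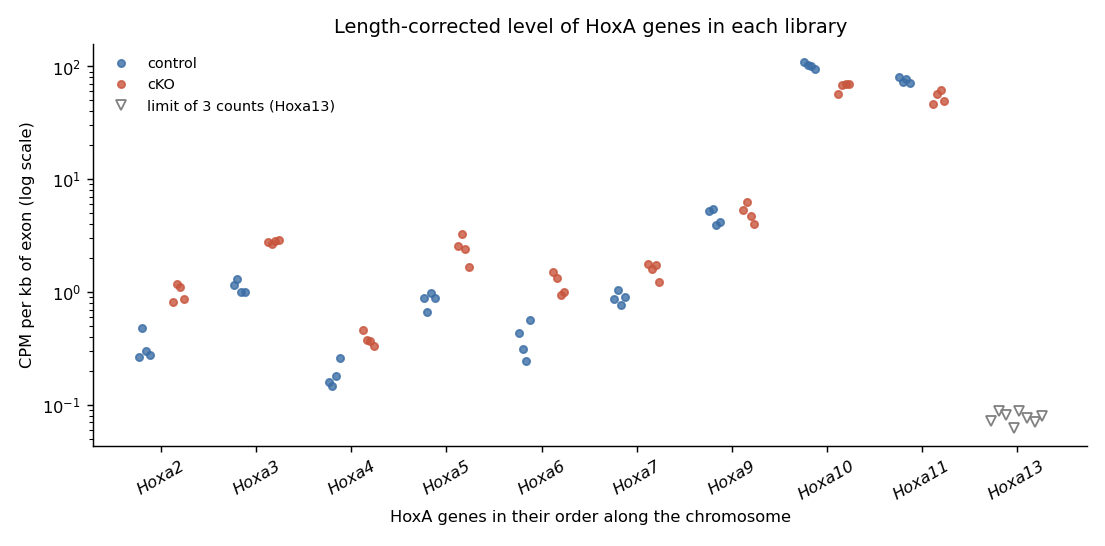
Level of HoxA genes from *Hoxa2* to *Hoxa13* per kb of exon on a log scale (points, libraries; control in blue, cKO in red), with the limit of 3 counts per library as open triangles for *Hoxa13*. *Hoxa10* and *Hoxa11* stand highest in both genotypes, with control means of 101.8 and 75.3 CPM per kb, and the anterior genes, with control means of at most 1.11, are higher in cKO.

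Noncoding transcripts inside the cluster and genes on either side of it were examined next. Of 11 listed, 8 were counted and 6 tested, and *Hotairm1*, *Hoxaas2* and *Hottip* were not analysed here. *Hoxa11os*, transcribed from the opposite strand and overlapping *Hoxa11* over 568 bases, was the most abundant of those inside the cluster, with 69.4 ± 4.43 CPM in controls against 58.7 ± 4.93 CPM in cKO mice (SD, n = 4). Its libraries overlapped and its log2 fold change of -0.24 (SE 0.07) did not pass (adjusted p = 0.0666, edgeR), though it passed with DESeq2 (adjusted p = 0.0312). With edgeR it passed without control replicate 2 (-0.28, adjusted p = 0.0417) and without cKO replicate 3 (-0.30, adjusted p = 0.0390), and not when any other library was left out (highest adjusted p = 0.216, without control replicate 1). Its log2 fold change was -0.32 with the fat score and -0.37 with cKO replicate 4 alone. The libraries mark strand, but the strand setting of the counting is not given in the sources used here, so reads of the overlap cannot be told apart between the pair. *Hoxaas3*, antisense to *Hoxa5* and *Hoxa6*, rose from 0.166 to 0.541 CPM (1.69, SE 0.39, adjusted p = 0.0258), and this call was lost when control replicate 1, control replicate 4 or any of cKO replicates 1 to 3 was left out (highest adjusted p = 0.0916). The call was lost too after adding the fat score (log2 fold change 1.06, adjusted p = 0.622) and with cKO replicate 4 alone (1.07, adjusted p = 0.877). It overlaps the whole of *Hoxa5* and *Hoxa6*, which also rose, so the same limit on shared reads holds for these 3 genes. *Mir196b*, a microRNA gene between *Hoxa9* and *Hoxa10*, was scarce and its log2 fold change of -0.33 (adjusted p = 0.701) was unsteady, from -0.84 without cKO replicate 3 to -0.10 without cKO replicate 1. It was -0.61 with the fat score and -0.945 with cKO replicate 4 alone. Outside the cluster, *Skap2* (0.19, adjusted p = 0.209), *Snx10* (-0.25, adjusted p = 0.109) and *Hibadh* (-0.01, adjusted p = 0.943) did not pass, and *Evx1* and *Evx1os*, beyond *Hoxa13*, had no counts in any library. *Skap2* lies at chr6:51859165-52012549, *Snx10* further out at chr6:51523900-51590679, and *Hibadh* on the other side at chr6:52546230-52640300. *Snx10* passed without cKO replicate 4 (-0.32, adjusted p = 0.0217) and in none of the other fits that left out 1 library, and had log2 fold changes of -0.11 after adding the fat score and -0.05 with cKO replicate 4 alone.

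The other Hox clusters hold paralogs of the members, which share their homeodomain type and can act in their place. Of 12 such genes of groups 9 to 13, 9 were tested: 4 rose, 2 fell and 3 did not pass, and all 4 that rose were DE. The share passing over all genes tested was 5.34%. Those that fell were the HoxD paralogs of the members that fell. *Hoxd11* was 35.7, 37.4, 36.6 and 33.5 CPM in control and 24.5, 21.7, 26.5 and 25.8 CPM in cKO replicates 1 to 4, with no overlap (log2 fold change -0.54, SE 0.08, adjusted p = 0.00116, edgeR). *Hoxd10* went from 95.5 ± 7.17 to 79.7 ± 4.63 CPM (-0.26, SE 0.07, adjusted p = 0.0395), a call that was lost when any library but control replicate 4 was left out (highest adjusted p = 0.143). *Hoxd9*, like *Hoxa9*, did not pass (-0.03, SE 0.08, adjusted p = 0.853), nor did *Hoxb9* (0.24, SE 0.10, adjusted p = 0.207) or *Hoxc11* (0.57, SE 0.27, adjusted p = 0.249). These 3 values moved with cKO replicate 4 alone and with the fat score as a covariate, again without passing: *Hoxd9* was -0.22 and -0.23, *Hoxb9* 0.08 and 0.04, and *Hoxc11* -0.14 and -0.00387. Without 1 library at a time, *Hoxc11* ranged from 0.34 without cKO replicate 3 to 0.75 without cKO replicate 4.

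The paralogs that rose were scarce in control uteri. *Hoxd13*, the paralog of the undetected *Hoxa13*, had 4 to 13 counts in control and 64 to 115 counts in cKO libraries, or 0.303 ± 0.175 and 2.72 ± 0.566 CPM (SD, n = 4). Its log2 fold change of 3.21 (SE 0.33, adjusted p = 0.000164, edgeR) was the largest among the Hox genes of groups 9 to 13 that were tested. *Hoxc10* rose from 3.03 to 7.26 CPM (1.26, SE 0.15, adjusted p = 0.000377) and *Hoxd12* from 0.522 to 1.42 CPM (1.46, SE 0.31, adjusted p = 0.0182), the latter losing its call when control replicate 3 or 4 or cKO replicate 3 was left out (log2 fold change down to 1.13, highest adjusted p = 0.0550). *Hoxc9* rose from 0.395 to 0.959 CPM (1.29, SE 0.33, adjusted p = 0.0408), a call lost when any library but control replicate 2 or cKO replicate 4 was left out (highest adjusted p = 0.125), and with limma-voom (adjusted p = 0.0610). The other group 13 genes resembled *Hoxa13*: *Hoxb13* had 1 count and *Hoxc13* none over all 8 libraries. None of the 9 passed with cKO replicate 4 alone, where *Hoxd13* had a log2 fold change of 2.93 (adjusted p = 0.0734) and *Hoxc10* of 1.40 (adjusted p = 0.0586), and these 2 were the ones that passed with the fat score as a covariate. In these fits, with cKO replicate 4 alone and with the fat score in turn, *Hoxd11* was -0.47 and -0.48, *Hoxd10* -0.32 and -0.34 and *Hoxd12* 1.24 and 1.33, while *Hoxc9* was lower than with all libraries at 0.52 and 0.47.

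**Figure D5:**
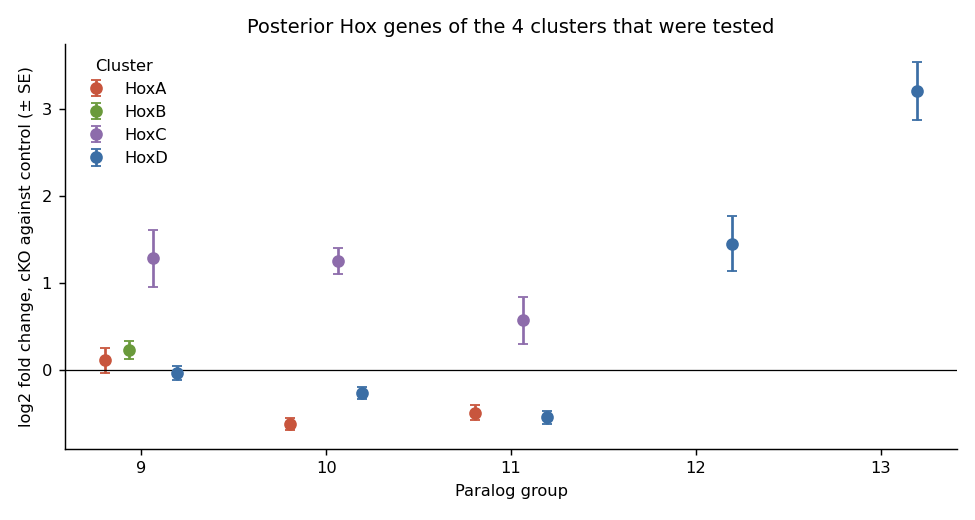
Log2 fold change with its SE of each posterior Hox gene that was tested, cKO against control, by paralog group (9 to 13) and cluster (HoxA red, HoxB green, HoxC purple, HoxD blue). In groups 10 and 11 the HoxA and HoxD genes lie below 0 and the HoxC genes above it, and in group 13 only *Hoxd13* (3.21) had enough counts to be tested.

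Per kb of exon, *Hoxa10* and *Hoxa11* were the highest Hox genes of groups 9 to 13 in control uteri, followed by *Hoxd10* at 52.6, *Hoxd9* at 31.6, *Hoxd11* at 8.503, *Hoxa9* at 4.67 and *Hoxb9* at 3.85. *Hoxa9* and *Hoxb9* overlapped in their libraries (3.89 to 5.41 against 3.54 to 4.09), and their order turned when all annotated exons were counted in the length, which gave 2.70 for *Hoxa9*. In cKO uteri these levels lay closer together: *Hoxa10* was 66.3, *Hoxa11* 53.6 and *Hoxd10* 43.9. Whether a member and its HoxD paralog differed in their change was tested on their ratio within each library. The log2 ratio of *Hoxa10* to *Hoxd10* was 1.75 ± 0.05 in control and 1.38 ± 0.12 in cKO (SD, n = 4), lower in every cKO library, with a difference of -0.36 (exact permutation p = 0.0286, adjusted over the 3 pairs 0.0857). The ratio of *Hoxa11* to *Hoxd11* differed by 0.05 (exact permutation p = 0.743, adjusted 0.743) and that of *Hoxa9* to *Hoxd9* by 0.14 (exact permutation p = 0.286, adjusted 0.429), each with overlapping libraries. With 70 arrangements of the 8 libraries, 0.0286 is the smallest two-sided p that this test can give. A single pair at that floor among 3 cannot be adjusted below 0.0857, so the adjusted value could not pass 0.05 here. Without 1 library at a time, the difference for *Hoxa9* and *Hoxd9* ranged from 0.08, without control replicate 3 or cKO replicate 2, to 0.21 without cKO replicate 3. The ratio of *Hoxa13* to *Hoxd13* was not computed, since *Hoxa13* had at most 1 count in a library.

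Likeness of pattern was measured for each member as the root mean square difference in centred log2 CPM over the 8 libraries, among 12181 genes whose mean reached 5 CPM. Centring over all libraries keeps the difference between genotypes, so this distance is not independent of the log2 fold changes above. The closest genes to *Hoxa10* were *Chst2* (0.0504), *Lrrc55* (0.0754) and *Cgnl1* (0.0764). Those closest to *Hoxa11* were *Glrb* (0.0760), *Eps8* (0.0839) and *Rorb* (0.0844), and those closest to *Hoxa9* were *Camkv* (0.0648), *Tagap* (0.0658) and *Dll4* (0.0698). *Hoxa10* and *Hoxa11* were near each other, 0.107 apart, *Hoxa11* ranking 15 for *Hoxa10* and *Hoxa10* ranking 13 for *Hoxa11*. *Hoxa9* was far from both, ranking 10521 for *Hoxa10* and 10329 for *Hoxa11*.

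Hox proteins bind DNA with cofactors of the PBX, MEIS and PREP families. All 9 such genes listed were tested, and 1 rose, 2 fell and 6 did not pass, with a median log2 fold change of 0.09. *Meis1* went from 172.3 ± 6.54 to 205.7 ± 9.10 CPM (0.26, SE 0.05, adjusted p = 0.0179, edgeR). *Pknox2* went from 33.0 ± 1.95 to 24.4 ± 1.89 CPM (-0.43, SE 0.07, adjusted p = 0.00515) and *Pknox1* from 81.9 ± 1.66 to 69.0 ± 4.46 CPM (-0.25, SE 0.06, adjusted p = 0.0258). The call of *Pknox1* was lost when any library but control replicate 2 or cKO replicate 4 was left out (highest adjusted p = 0.104), and that of *Meis1* when control replicate 1 or 3 or cKO replicate 1 or 2 was (0.0619). None of these changes reached that of *Hoxa10* in size.

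Among 19 genes that form or pattern the Müllerian tract or act upstream of Hox genes, 15 were tested. Of these, 2 fell, none rose and 13 did not pass, with a median of 0.01, while 5.34% of all genes tested passed in either direction. *Wnt5a*, a stromal signal that interacts with the posterior HoxA genes in tract patterning, fell from 382.6 ± 21.4 to 284.9 ± 34.6 CPM (-0.43, SE 0.08, adjusted p = 0.0104, edgeR), with no cKO library above a control library. *Amhr2*, the anti-Müllerian hormone receptor whose locus drives the Cre, fell from 6.15 ± 0.749 to 3.69 ± 0.610 CPM (-0.73, SE 0.15, adjusted p = 0.0148), a call lost when replicate 1 of either genotype was left out (highest adjusted p = 0.0605). For *Amhr2*, an effect of the Cre allele on its own locus cannot be told apart from that of EZH2 loss.

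Of 13 genes placed downstream of *Hoxa10* or *Hoxa11* in the uterus, 12 were tested. Among them 2 rose, 2 fell and 8 did not pass, with a median of 0.02, against 5.34% of all genes tested passing in either direction. The prostaglandin E2 receptor genes moved in opposite directions. *Ptger3* was 26.0, 26.7, 28.7 and 34.8 CPM in control and 44.5, 52.7, 48.5 and 49.5 CPM in cKO replicates 1 to 4 (0.75, SE 0.09, adjusted p = 0.000533, edgeR), and *Ptger4* went from 24.5 ± 5.70 to 15.6 ± 0.952 CPM (-0.65, SE 0.14, adjusted p = 0.0177). *Itgb3*, which encodes an integrin subunit, fell from 14.6 ± 2.96 to 9.92 ± 1.13 CPM (-0.56, SE 0.14, adjusted p = 0.0347), and *Cdkn1c*, a cell cycle inhibitor, rose from 108.4 ± 9.38 to 138.8 ± 15.96 CPM (0.36, SE 0.09, adjusted p = 0.0305). Leaving out control replicate 1, 2 or 4 or cKO replicate 2 or 3 ended the call of *Itgb3* (highest adjusted p = 0.0946), leaving out control replicate 1 or 3 or cKO replicate 2 or 3 that of *Cdkn1c* (0.0905), and leaving out cKO replicate 1 or 3 that of *Ptger4* (0.0580).

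Of 30 chromatin regulators that act on Hox clusters, 1 rose and 29 did not pass, with a median of -0.03. This count does not stand above the 5.34% of all genes tested that passed in either direction. *Bmi1*, a subunit of polycomb repressive complex 1, was 67.0, 62.1, 64.3 and 65.9 CPM in control and 103.7, 123.7, 121.5 and 119.1 CPM in cKO replicates 1 to 4 (0.85, SE 0.06, adjusted p = 1.48e-05, edgeR), and it passed with cKO replicate 4 alone (adjusted p = 0.00855). Of the 10 genes named from these 4 lists, *Bmi1* alone passed with cKO replicate 4 alone, and *Bmi1* and *Ptger3* with the fat score as a covariate. In these fits, in that order, the log2 fold changes of *Amhr2* (-0.96 and -0.98), *Itgb3* (-0.66 and -0.70), *Ptger3* (0.77 and 0.79), *Ptger4* (-0.55 and -0.67), *Cdkn1c* (0.35 and 0.40), *Meis1* (0.22 and 0.23) and *Pknox2* (-0.33 and -0.38) stayed within 1.5 times of those with all libraries. *Wnt5a* was -0.29 in both, and *Pknox1*, at -0.12 and -0.13, was the most reduced of the 10.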

How the data were processed

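RNA-seq libraries (TruSeq stranded mRNA) were made from whole uteri, one per mouse. The authors used Trimmomatic, HISAT2 (on GRCm38) and featureCounts, and the deposited files hold raw counts per Entrez gene. Symbols came from the authors' table for 16390 genes and from RefSeq for 9050 of the others, *Hoxa13* among them, and 1739 had none. Gene, exon and promoter coordinates came from RefSeq and GENCODE annotations of the same build. Columns of the authors' own comparison (fold changes, p-values) and their normalized table were not used.

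Tests covered genes that exceeded 0.2 CPM in 4 or more libraries, in R 4.3.3 with edgeR 4.0.16 (TMM, glmQLFit and glmQLFTest, robust = TRUE), with genotype as the only term and Benjamini-Hochberg adjustment. The filter, TMM, robust setting and adjustment follow the methods of the study. SE and intervals are those of this fit. Ratios had 0.5 counts added to each gene, and those of HoxA to HoxD paralogs were tested with exact permutation tests. The fit was tested on simulated counts. Lists and members were chosen with earlier results of these data known. Alternatives were other scalings, no filter, robust = FALSE, DESeq2 1.42.0, limma-voom (limma 3.58.1), a replicate block, leaving out each library, cKO replicate 4 alone, a fat score covariate and 2 counts added in ratios. Neighbour ratios and counts over lists were added after seeing the data. Named genes are the members, the HoxA genes and transcripts, posterior Hox paralogs, *Ezh2*, up to 4 genes with the smallest p per other list, and the 3 closest patterns per member. Some genes are not reported here. No library pair agreed within sampling noise (chi-square per gene 7.80 to 31.8 over 28 pairs).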

Additional observations from a re-analysis of the deposited data

Results flagged for a closer look

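Within the control group, the library farthest from the rest stood apart for *Hoxa2*: control replicate 2 had 0.851 CPM and the other controls 0.473 to 0.535 CPM, a gap of 0.836 of the range of the group. *Hoxaas3* had 0.285 CPM in control replicate 3 against 0.116 to 0.137 CPM in the other controls, a gap of 0.875 of the range. These were 2 of 84 groups looked at, and chance flags about 1 in 20. No group of *Hoxa9*, *Hoxa10* or *Hoxa11* values held such a library.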

How the results depend on the processing

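The falls of *Hoxa10* and *Hoxa11* kept their direction under every alternative run, and lost the threshold as given in the report: *Hoxa10* with cKO replicate 4 alone (-0.53), and *Hoxa11* with cKO replicate 4 alone (-0.60) and the fat score (-0.60). *Hoxa9* turned sign in both of these (-0.23 and -0.25). Members past the threshold were then 0 and 1, against 2 otherwise. The lone library is assumed to vary like the controls.

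Genes past the adjusted p numbered 889, and 119 with the fat score, 38 with cKO replicate 4 alone, 1506 with DESeq2, and 425 (without control replicate 1) to 1783 (without cKO replicate 4) with a library left out. DE genes numbered 217, and 47 with the fat score, 22 with cKO replicate 4 alone and 142 to 336 with a library left out. Without 1 library *Hoxa9* was between 0.00124 and 0.21. With the fat score and with cKO replicate 4 alone, 1 anterior HoxA gene passed the threshold rather than 5, with all 6 still above 0, and 2 and 0 posterior paralogs passed rather than 6. Without control replicate 3, or without cKO replicate 3, 3 paralogs passed.

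Values that turned sign, none of them past the threshold, were *Hibadh* (0.000419 with no scaling beyond totals, 0.0509 with the fat score, 0.0769 with cKO replicate 4 alone, -0.0382 to 0.00917 without 1 library), *Hoxc11* (0.57 in the report, -0.00387 with the fat score, -0.14 with cKO replicate 4 alone) and *Hoxd9* (-0.0773 to 0.0256 without 1 library). The ratio of *Hoxa11* to *Hoxd11* differed by -0.05 to 0.11 without 1 library. The causes were not tested.

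The labels do not say whether same-numbered libraries share anything beyond the number. Deviations of same-numbered libraries correlated at 0.0110, 0.108, 0.00420 and 0.190, and those of differently numbered libraries at -0.181 to 0.158. A shared batch or litter was not tested. With the replicate block the log2 fold changes were 0.11 for *Hoxa9*, -0.62 for *Hoxa10* and -0.50 for *Hoxa11*, 1240 genes passed the adjusted p, and *Hoxa11os* passed (adjusted p = 0.0342). The fits of *Hoxa13* and its ratio to *Hoxd13* were not run for want of counts.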
